A study of Mus musculus with 12 samples.

Results

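Meiotic entry and germ cell genes are described here as a set of 9: Stra8, Kit, Aurkc, Dazl, Syce1, Sycp1, Stk31, Tex19.1 and Piwil2. They were taken by gene symbol, as every probe set that the platform annotation gives to 1 of these symbols, which yielded 12 probe sets of 37600 and 9 genes of 16509. The 9 were chosen with earlier results of these data known, so their shares beside those of all genes are a description and no test. Dazl, Kit and Stk31 had 2 probe sets each and the other 6 genes had 1. The measurements came from 12 Affymetrix mouse expression arrays of F9 cells, a mouse teratocarcinoma line of embryonal carcinoma type. The arrays formed 4 groups of 3: cells labelled RARaKO (a line in which Rara, for retinoic acid receptor alpha, is named as knocked out) given all-trans retinoic acid (atRA), cells labelled RARaKO given the ethanol vehicle, WT cells given atRA, and WT cells given vehicle. Cells of all 4 groups also received cycloheximide, which blocks protein synthesis, at 1 µg/ml for 8 h in total. After 30 min in the inhibitor, atRA at 1 µM or ethanol at 0.1% was present for 7.5 h. The labels used here do not say how Rara was disrupted, whether the knockout line is 1 clone, or whether the sets numbered 2, 3 and 4 were separate cultures.

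In the gonad, retinoic acid binds nuclear receptors of the RAR family and is linked to the entry of germ cells into meiosis. Stra8 is a well known gene switched on at that step, and Kit, the receptor for stem cell factor, marks spermatogonia that have left the undifferentiated state. Germ cell genes such as Dazl and Tex19.1 are kept silent in most somatic cells, where DNA methylation and Polycomb complexes at their promoters take part. Embryonal carcinoma cells stand close to the early germ line and carry part of this program.

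The promoter windows of 5 of the genes are shown because the results divide these genes by their answer to atRA. Stra8, Aurkc and Kit rose with atRA, and Dazl and Stk31 held no called response. All 5 were called higher in vehicle arrays labelled RARaKO than in WT, though Kit and Stk31 not on every probe set. Syce1 and Tex19.1 went as Dazl did, and their windows are not shown. Each window runs from 250 bases before to 50 bases after the start annotated by RefSeq (GRCm38.p6), 5′ to 3′ on the strand of the gene. Capitals mark a core hexamer of retinoic acid receptor binding (AGGTCA, its variant AGTTCA, the form GGGTCA or the form GGTTCA, on either strand), the E-box CACGTG or the E2F-type sequence GGCGGGA.
Stra8 (chr6:34920698-34920997, forward strand): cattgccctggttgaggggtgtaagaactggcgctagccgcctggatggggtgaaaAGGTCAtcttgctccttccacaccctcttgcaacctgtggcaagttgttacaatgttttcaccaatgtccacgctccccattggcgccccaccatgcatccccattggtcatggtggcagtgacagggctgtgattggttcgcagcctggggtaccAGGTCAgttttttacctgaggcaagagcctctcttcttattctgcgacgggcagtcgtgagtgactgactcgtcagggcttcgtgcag
Aurkc (chr7:6995135-6995434, forward strand): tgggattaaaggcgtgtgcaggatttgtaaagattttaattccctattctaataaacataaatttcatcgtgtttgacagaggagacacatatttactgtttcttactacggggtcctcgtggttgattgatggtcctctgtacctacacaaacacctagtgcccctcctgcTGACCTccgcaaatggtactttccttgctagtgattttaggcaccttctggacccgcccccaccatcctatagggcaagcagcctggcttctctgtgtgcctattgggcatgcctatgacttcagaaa
Kit (chr5:75574737-75575036, forward strand): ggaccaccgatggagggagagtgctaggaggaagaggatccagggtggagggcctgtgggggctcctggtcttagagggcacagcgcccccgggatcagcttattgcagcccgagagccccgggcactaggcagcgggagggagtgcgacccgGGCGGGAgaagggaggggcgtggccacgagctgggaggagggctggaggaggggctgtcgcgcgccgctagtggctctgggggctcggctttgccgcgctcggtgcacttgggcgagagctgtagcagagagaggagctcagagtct
Dazl (chr17:50293571-50293870, reverse strand): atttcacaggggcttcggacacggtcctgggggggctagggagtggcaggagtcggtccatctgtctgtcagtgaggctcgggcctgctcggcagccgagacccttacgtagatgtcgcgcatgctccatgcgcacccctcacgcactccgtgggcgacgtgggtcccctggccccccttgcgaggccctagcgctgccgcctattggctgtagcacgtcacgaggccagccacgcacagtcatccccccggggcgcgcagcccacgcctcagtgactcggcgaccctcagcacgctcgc
Stk31 (chr6:49395289-49395588, forward strand): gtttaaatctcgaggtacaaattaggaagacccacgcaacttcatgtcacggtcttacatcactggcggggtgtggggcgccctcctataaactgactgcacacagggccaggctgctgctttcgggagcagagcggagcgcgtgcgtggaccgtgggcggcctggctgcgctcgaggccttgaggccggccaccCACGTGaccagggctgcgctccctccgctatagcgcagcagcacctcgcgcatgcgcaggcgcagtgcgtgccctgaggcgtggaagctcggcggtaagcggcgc

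The Stra8 window held AGGTCA at 2 places, 194 to 189 and 38 to 33 bases before the start, and the Aurkc window held it once on the opposite strand, 78 to 73 bases before the start. Any of the 4 hexamers occurred in 43.7% of 32851 mouse windows of this length, so a match describes the letters and not a site. No window of a member held 2 hexamers as a direct repeat spaced by 1, 2 or 5 bases, an arrangement found in 0.222%, 0.268% and 0.0974% of all windows. The E-box stood in the windows of Stk31 and Sycp1 (7.15% of all windows), and the E2F-type sequence stood in that of Kit (11.3%). CG dinucleotides numbered 28 in the window of Dazl, 29 in the one shown for Stk31, 21 for Sycp1, 20 for Kit, 16 for Tex19.1, 14 for Syce1, 10 for Stra8 and 6 for Aurkc, against a median of 7 over all windows (quartiles 3 and 20). Windows were at hand for 8 of the 9 genes.

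The deposited values are relative: the median of every probe set across the 12 arrays is 0, on a scale taken as log2, so only differences between arrays can be read. A coarse level could be recovered from the rounding of the numbers. By it the probe sets of Stra8, Syce1 and Tex19.1 and 1 of the 2 of Kit lay at 8 or more on the log2 scale, as did 36.2% of all probe sets, while those of Aurkc, Dazl, Sycp1, Stk31 and Piwil2 lay below. All 12 embryonal carcinoma marker genes, among them Pou5f1, Nanog and Sox2, lay at 8 or more, as the cell label would have it. So did 13 of 16 extraembryonic endoderm genes, against 3 of 12 somatic gonad genes and 1 of 7 fibroblast genes. The atRA array of set 2 labelled RARaKO spread more widely over all probe sets (SD 0.201) than the other 11 arrays (0.128 to 0.162).

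The targeted gene went against its label. Rara averaged 0.30 ± 0.02 in vehicle arrays labelled RARaKO and -0.60 ± 0.14 in WT vehicle arrays (SD, n = 3 each), a log2 difference of 0.90 ± 0.09 (SE, limma, adjusted p = 1.50e-04). With atRA it averaged 0.20 ± 0.13 in arrays labelled RARaKO and -0.16 ± 0.11 in WT arrays (SD, n = 3 each), a difference of 0.36 ± 0.09 (SE, limma, adjusted p = 0.0488). The labels do not say which stretch of Rara was removed, so the 1 probe set read for Rara cannot settle the genotype. Every direction given below between genotypes rests on the label RARaKO.

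Stra8, Aurkc and Kit were the 3 of 9 genes that rose with atRA. They did so in WT cells and in cells labelled RARaKO, all in the presence of cycloheximide. Of all genes, 0.691% rose in WT and 0.339% in arrays labelled RARaKO. None of the 9 fell, where 0.109% of all genes did in WT and 0.0606% in arrays labelled RARaKO. By probe sets 3 of 12 rose in each genotype, beside 0.484% of all probe sets in WT and 0.215% in arrays labelled RARaKO. None of the 12 fell, beside 0.0851% and 0.0479% of all. The size of the WT response was 2.50-fold for Aurkc, 1.91-fold for Stra8 and 1.68-fold for Kit.

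**Figure D1:**
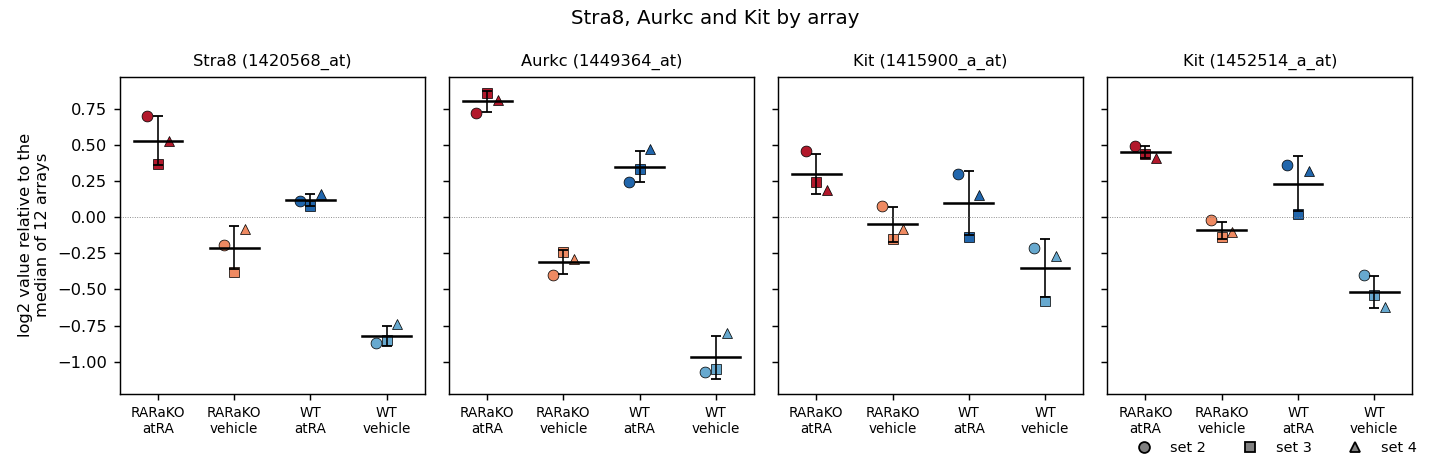
Each panel shows 1 probe set, with the log2 value relative to the median of the 12 arrays on the vertical axis and the 4 groups on the horizontal axis. Points are arrays (shape gives the set), bars are means and whiskers are SD of 3 arrays. For Stra8, Aurkc and Kit 1452514_a_at the 4 groups do not overlap, and WT vehicle is lowest.

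Stra8 encodes a nuclear protein that germ cells need to begin meiotic prophase. Its values were 0.11, 0.08 and 0.16 in WT atRA arrays (sets 2, 3 and 4), against -0.87, -0.85 and -0.74 in WT vehicle arrays. Without overlap between the groups, the log2 difference was 0.94 ± 0.09 (adjusted p = 3.64e-04). Arrays labelled RARaKO read 0.70, 0.37 and 0.53 with atRA, against -0.19, -0.38 and -0.08 in vehicle. These groups did not overlap either, and Stra8 rose by 0.75 ± 0.09 (adjusted p = 0.00422), a 1.68-fold change. In the order of the 4 groups, atRA arrays labelled RARaKO came highest, then WT atRA, then vehicle arrays labelled RARaKO, then WT vehicle. No neighbours in that order overlapped.

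Aurkc encodes the Aurora kinase that acts mainly in meiotic cells. Its values were 0.24, 0.33 and 0.47 in WT atRA arrays, against -1.07, -1.05 and -0.80 in WT vehicle arrays. This was the widest response among the 12 probe sets, at 1.32 ± 0.09 (adjusted p = 1.37e-05). Arrays labelled RARaKO read 0.72, 0.86 and 0.81 with atRA, against -0.40, -0.24 and -0.29 in vehicle, a rise of 1.10 ± 0.09 (adjusted p = 1.90e-04). The order of the groups was that of Stra8, again with no overlap between neighbours. Among the 10 genes measured for Aurora kinases and partners, among them Aurka and Aurkb, which serve mitosis, none was called with atRA in either genotype (limma; 0 also at an unadjusted p under 0.05). Their WT differences ran from -0.10 to 0.07.

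Kit encodes the tyrosine kinase receptor of stem cell factor. On probe set 1452514_a_at its values were 0.36, 0.02 and 0.32 in WT atRA arrays, against -0.40, -0.54 and -0.62 in WT vehicle arrays. The WT rise was 0.75 ± 0.09 (adjusted p = 0.00155). Arrays labelled RARaKO read 0.49, 0.44 and 0.41 with atRA, against -0.02, -0.14 and -0.10 in vehicle, a rise of 0.53 ± 0.09 (adjusted p = 0.0297). On probe set 1415900_a_at the differences were 0.46 ± 0.13 in WT (adjusted p = 0.214) and 0.35 ± 0.13 in arrays labelled RARaKO (adjusted p = 0.460), also without overlap between atRA and vehicle arrays. This probe set was called in WT with the set as a block (adjusted p = 0.0148) and with array weights (adjusted p = 0.0404).

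The other 6 genes held no called response. Their 8 probe sets differed with atRA in WT by -0.26 (Sycp1) to 0.07 (Stk31, 1454138_a_at), and in arrays labelled RARaKO by -0.24 (Stk31, 1454138_a_at) to -0.00 (Piwil2). In WT the 95% interval ran from -0.48 to -0.05 for Sycp1, which leaves out 0 although the adjusted p was 0.523, and from -0.44 to 0.02 for Stk31 on 1425317_x_at. It ran from -0.37 to 0.03 for Syce1, from -0.27 to 0.22 for Tex19.1, from -0.21 to 0.13 for Dazl (1449502_at) and from -0.10 to 0.19 for Piwil2. With the RARaKO label it left out 0 for Stk31 on 1454138_a_at (-0.44 to -0.04, adjusted p = 0.503). In atRA arrays labelled RARaKO, Stk31 on 1454138_a_at lay below all vehicle arrays (0.03, 0.27 and 0.15 against 0.51, 0.32 and 0.35), a separation that 5.4% of all probe sets showed in this direction. The 4 probe sets that lay above, those of Stra8, Aurkc and Kit, stand beside 7.31% of all probe sets there, and beside 6.22% in WT. No member probe set lay below in WT, where 7.4% of all did.

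In WT no call of these 3 genes was lost by leaving out 1 array, and that of Kit was lost without set 4 (adjusted p = 0.163). In arrays labelled RARaKO the call of Kit was lost without each of the 6 arrays (adjusted p from 0.0756 without vehicle replicate 2 to 0.177 without vehicle replicate 3), and those of Stra8 and Aurkc were not. Without a whole set, the call of Stra8 was lost for each of the 3 sets (0.0963 to 0.167), that of Kit likewise (0.257 to 0.424) and that of Aurkc without set 3 (0.106). A fit on these 2 groups alone ended the calls of Kit (0.0735) and Stra8 (0.108), and both scalings ended that of Kit (0.145 and 0.0779), as did its mean over probe sets (0.0727). Control transcripts also parted the WT groups. The mean 5' minus 3' difference of 4 control genes was 0.0178, -0.0248 and -0.0128 in WT atRA arrays, against -0.0899, -0.123 and -0.0844 in WT vehicle arrays. It overlapped in arrays labelled RARaKO, from 0.00122 to 0.0897 with atRA and from -0.0227 to 0.132 in vehicle. Its part in the responses was not tested. Of the marker genes, Pdgfrb (fibroblast) was called higher with atRA in WT (0.50 ± 0.08) and in arrays labelled RARaKO (0.52 ± 0.08). Nr5a1 (somatic gonad) was called lower with atRA in arrays labelled RARaKO (-0.54 ± 0.08).

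**Figure D2:**
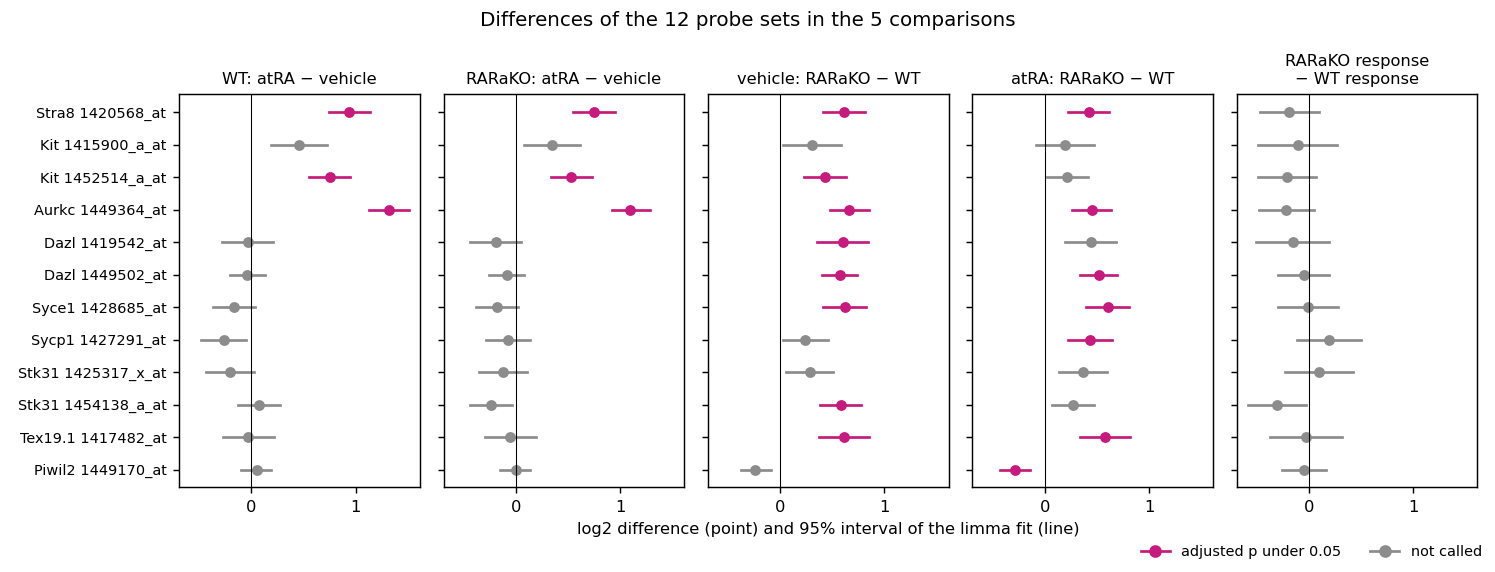
The 5 panels give the log2 difference of each of the 12 probe sets (rows) in each comparison, with lines for the 95% interval of the limma fit and colour for an adjusted p under 0.05. Stra8, Kit and Aurkc carry the called atRA responses, 8 probe sets are called in vehicle between genotypes, and none in the difference of the responses.

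Whether the genotype altered the response of these genes was tested as the response in arrays labelled RARaKO minus that in WT. None of the 12 probe sets was called (limma, adjusted p = 1.00 for each), nor was any of the 37600 (0%), of which 1168 had an unadjusted p under 0.05. The difference was -0.22 for Aurkc (95% interval -0.48 to 0.05), -0.19 for Stra8 (-0.47 to 0.09) and -0.21 for Kit on 1452514_a_at (-0.49 to 0.06). All 3 point estimates were below 0, but they come from the same arrays. The intervals allow no difference, a response smaller by up to 0.49 on the log2 scale, or one larger by up to 0.09. In limma's fit, Stk31 on 1454138_a_at was the only one of the 12 with an unadjusted p under 0.05, at -0.31 (-0.59 to -0.03), and its adjusted p was 1.00. Its other probe set gave 0.09 (-0.23 to 0.42).

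In vehicle, 7 of the 9 genes lay higher in cells with the RARaKO label than in WT cells, against 2.05% of all genes. They were Stra8, Kit, Aurkc, Dazl, Syce1, Stk31 and Tex19.1. They lay 1.35-fold (Kit) to 1.59-fold (Aurkc) higher. By probe sets the count was 8 of 12, where 1.84% of all probe sets were called higher. None was called lower, where 1.16% of all probe sets and 1.33% of all genes were. The 9 probe sets with no overlap above WT stand beside 9.69% of all probe sets that parted so. These values share the vehicle arrays with the atRA responses above, so they are no second, separate sign of either. Because the 9 were chosen with earlier results known, the counts say nothing about germ cell genes at large.

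Of the genes that answered atRA, Stra8 was higher in vehicle by 0.61 ± 0.09 (adjusted p = 0.00327), Aurkc by 0.66 ± 0.09 (adjusted p = 0.00106) and Kit (1452514_a_at) by 0.43 ± 0.09 (adjusted p = 0.0226). On the second Kit probe set the difference was 0.30 ± 0.13 (adjusted p = 0.259), which passed with the set as a block (adjusted p = 0.0401). The vehicle values of all 3 genes, printed above, did not overlap between the genotypes.

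**Figure D3:**
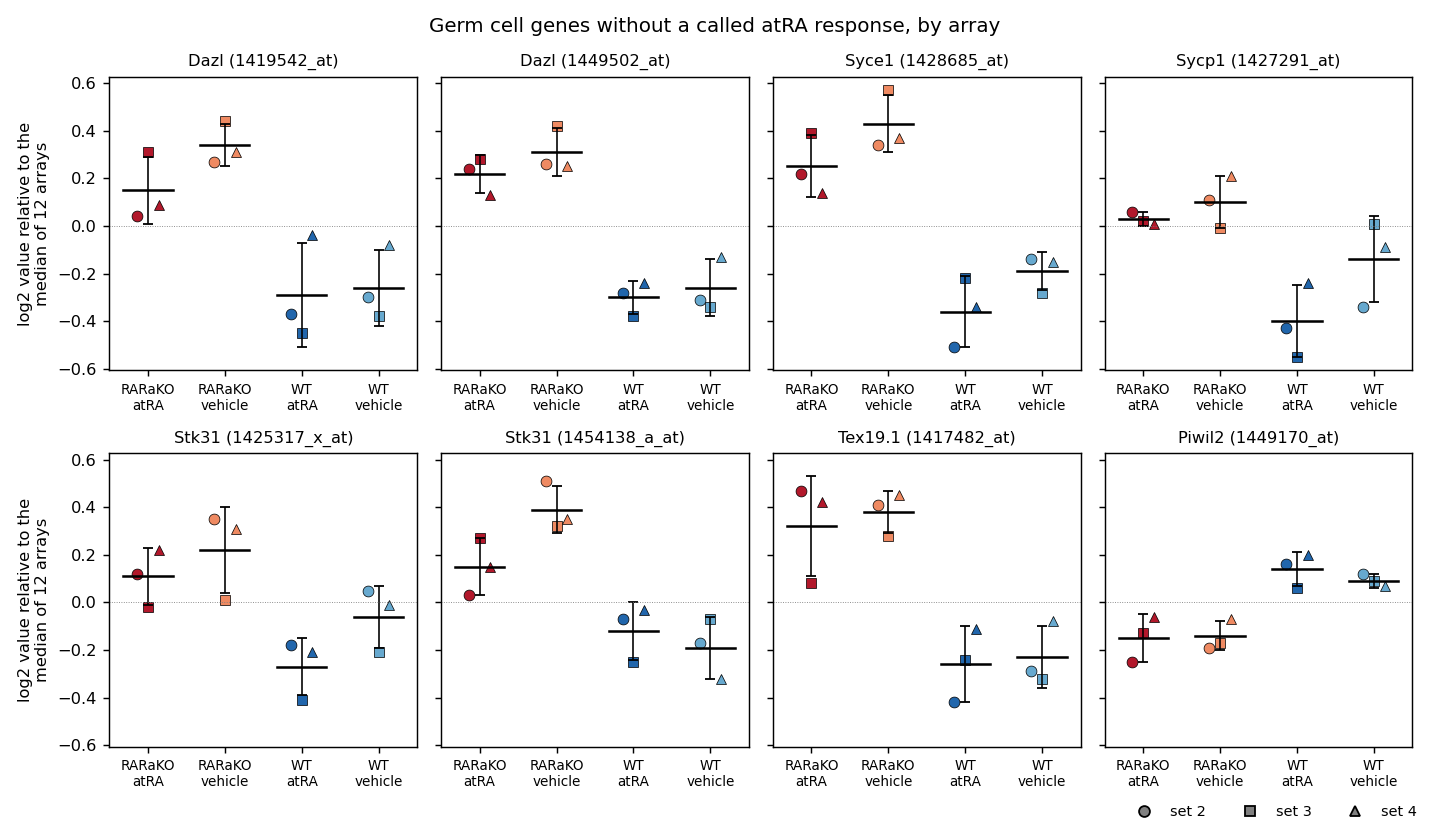
Panels show the 8 probe sets of the 6 genes with no called atRA response, with the log2 value relative to the median of the 12 arrays on the vertical axis and the 4 groups on the horizontal axis. Points are arrays, bars are means and whiskers are SD of 3 arrays. Dazl, Syce1 and Tex19.1 lie above WT in both treatments in the arrays labelled RARaKO, and Piwil2 lies below.

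Dazl encodes an RNA-binding protein that germ cells need for their identity and for entry into meiosis. On probe set 1449502_at it read 0.26, 0.42 and 0.25 in vehicle arrays labelled RARaKO, against -0.31, -0.34 and -0.13 in WT vehicle arrays, a difference of 0.57 ± 0.08 (adjusted p = 0.00159). On 1419542_at it read 0.27, 0.44 and 0.31, against -0.30, -0.38 and -0.08 in WT (0.60 ± 0.11, adjusted p = 0.0132). Both probe sets parted the genotypes by nearly the same amount.

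Syce1 and Sycp1 encode parts of the synaptonemal complex, which joins paired chromosomes in meiosis. Syce1 read 0.34, 0.57 and 0.37 in vehicle arrays labelled RARaKO, against -0.14, -0.28 and -0.15 in WT, a difference of 0.62 ± 0.09 (adjusted p = 0.00310). Sycp1 read 0.11, -0.01 and 0.21, against -0.34, 0.01 and -0.09 in WT. These Sycp1 groups overlapped, and its difference of 0.24 ± 0.10 was not called (adjusted p = 0.258).

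Tex19.1, a mammalian germ cell gene that helps to hold retrotransposons in check, read 0.41, 0.28 and 0.45 in vehicle arrays labelled RARaKO, against -0.29, -0.32 and -0.08 in WT (0.61 ± 0.11, adjusted p = 0.0107). Stk31, a testis kinase gene, read 0.51, 0.32 and 0.35 on 1454138_a_at, against -0.17, -0.07 and -0.32 in WT (0.58 ± 0.09, adjusted p = 0.00403). Its other probe set, 1425317_x_at, is of a type that can share probes with other transcripts and gave 0.28 ± 0.11 (adjusted p = 0.215, and 0.0213 with the set as a block). Piwil2, which encodes a PIWI protein of the piRNA pathway, was the one gene whose value lay the other way. It read -0.19, -0.17 and -0.07 in vehicle arrays labelled RARaKO, against 0.12, 0.09 and 0.07 in WT, a difference of -0.24 ± 0.07 that was not called (adjusted p = 0.0908), though it was with array weights (adjusted p = 0.0316). The groups did not overlap, as in 12.7% of all probe sets in this direction.

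Of the 8 vehicle calls, those of Stra8, Aurkc, Dazl (1449502_at), Syce1, Stk31 and Tex19.1 were kept whichever array was left out. That of Kit was lost without 5 of the 6 arrays, all but WT vehicle replicate 2 (adjusted p from 0.0559 without RARaKO vehicle replicate 4 to 0.105 without WT vehicle replicate 4), and that of Dazl on 1419542_at without RARaKO vehicle replicate 3 (0.0678) or WT vehicle replicate 3 (0.0591). Leaving out a whole set ended the call of Kit (each set, 0.0856 to 0.255), Dazl on 1419542_at (sets 2 and 3, 0.118 and 0.166), Stra8 (set 4, 0.0812), Aurkc and Dazl on 1449502_at (set 3, 0.0894 and 0.0779), Syce1 (sets 3 and 4, 0.0550 and 0.0617), Stk31 (sets 2 and 4, 0.0624 and 0.102) and Tex19.1 (each set, 0.0745 to 0.0922). Quantile normalization ended those of Aurkc (0.0903) and Kit (0.0640), and the mean over its probe sets that of Kit (0.0542). The control transcripts' 5' minus 3' difference also parted these groups, at -0.0227 to 0.132 in vehicle arrays labelled RARaKO and -0.123 to -0.0844 in WT vehicle arrays. The mean of 12 somatic gonad marker genes lay at -0.09 to -0.07 in vehicle arrays labelled RARaKO and at 0.02 to 0.08 in WT vehicle arrays, with Wt1, Nr5a1 and Cyp11a1 called lower and none called higher. Of 12 embryonal carcinoma genes L1td1 was called higher and none lower, and their median was 0.12 beside -0.02 over all genes. Their mean overlapped, at -0.06 to 0.22 in vehicle arrays labelled RARaKO and -0.07 to 0.05 in WT vehicle arrays. No extraembryonic endoderm or fibroblast gene was called. The part of any of these in the gene differences was not tested. In bulk cultures a change in the number of cells that express a gene and a change in RNA per cell cannot be told apart.

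With atRA present in both genotypes, 6 probe sets, each of another gene, lay higher in arrays labelled RARaKO and 1 lay lower, where 1.61% and 1.51% of all probe sets were called. Counted on 1 probe set a gene, 5 of the 9 genes were higher and 1 was lower, where 1.74% of all genes were called in each direction. The counts differ by Dazl, called on 1449502_at and not on the probe set that stood for the gene. Without overlap, 10 probe sets lay above WT and 1 below, beside 9.9% and 10.5% of all. Syce1 was higher by 0.61 ± 0.09 (adjusted p = 0.00338), Tex19.1 by 0.58 ± 0.11 (adjusted p = 0.0138) and Dazl on 1449502_at by 0.52 ± 0.08 (adjusted p = 0.00332). Aurkc was higher by 0.45 ± 0.09 (adjusted p = 0.0139) and Stra8 by 0.42 ± 0.09 (adjusted p = 0.0295). The groups did not overlap for any of these 5 genes.

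Sycp1 was called here though not in vehicle. It read 0.06, 0.02 and 0.01 in atRA arrays labelled RARaKO, against -0.43, -0.55 and -0.24 in WT atRA arrays, a difference of 0.43 ± 0.10 (adjusted p = 0.0359). Its difference of responses, given by the test above, was 0.19 (95% interval -0.12 to 0.50), so the 2 genotype differences were not shown to differ. Piwil2 was called lower, at -0.25, -0.13 and -0.06 in atRA arrays labelled RARaKO, against 0.16, 0.06 and 0.20 in WT atRA arrays (-0.29 ± 0.07, adjusted p = 0.0405). Kit was not called (1452514_a_at, 0.21 ± 0.09, adjusted p = 0.234), nor was Stk31 (0.27 ± 0.09, adjusted p = 0.137, on 1454138_a_at and 0.37 ± 0.11, adjusted p = 0.0815, on 1425317_x_at), nor Dazl on 1419542_at (0.44 ± 0.11, adjusted p = 0.0605). Both Stk31 probe sets and this one of Dazl lay above WT without overlap. With the mean over a gene's probe sets, Stk31 (0.32, adjusted p = 0.0320) and Dazl (0.48, adjusted p = 0.00714) were called. Dazl on 1419542_at was also called without WT atRA replicate 4 (adjusted p = 0.0247). With the set as a block, Dazl on 1419542_at (adjusted p = 0.0369) and Stk31 on 1425317_x_at (adjusted p = 0.00504) were called.

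Of these 7 calls, those of Syce1 and Dazl (1449502_at) were kept whichever array was left out. Those of Stra8 and Sycp1 were each lost without 5 of the 6 arrays, all but RARaKO atRA replicate 3 for Stra8 (0.0644 to 0.0936) and all but WT atRA replicate 4 for Sycp1 (0.0692 to 0.109). That of Piwil2 was lost without RARaKO atRA replicates 2 and 3 or WT atRA replicates 2 and 4 (0.0719 to 0.167), that of Tex19.1 without RARaKO atRA replicate 2 (0.0559) or WT atRA replicate 2 (0.0590), and that of Aurkc without WT atRA replicate 2 (0.0601). Each of the 7 was lost without at least 1 whole set, from 0.0576 for Syce1 without set 4 to 0.289 for Piwil2 without set 2. Scaling to 1 median and spread and quantile normalization ended the calls of Aurkc (0.139 and 0.180) and Stra8 (0.0994 and 0.0717). A fit on the atRA arrays alone ended those of Stra8 (0.0719), Sycp1 (0.0549), Tex19.1 (0.0559) and Piwil2 (0.151), and array weights that of Sycp1 (0.0658). The mean of the 12 somatic gonad genes lay at -0.06 to -0.02 in atRA arrays labelled RARaKO and at 0.01 to 0.08 in WT atRA arrays. Wt1 (-0.56), Nr5a1 (-0.54) and Cyp11a1 (-0.28) were called lower and none was called higher. Of the 12 embryonal carcinoma genes L1td1 was called higher and none lower, and their median was 0.07 beside -0.01 over all genes. The part of these marker genes in the differences was not tested.

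Beyond these 9, 125 other genes of meiosis and the germ line were read on 1 probe set each, in 8 lists by role. None was called higher with atRA in WT and 2 were called lower, against 0.691% and 0.109% of all genes. Both belong to the 21 genes of spermatogonia, oocytes and KIT signalling. They were Id4, a marker of spermatogonial stem cells (-0.63 ± 0.08, adjusted p = 0.00276), and Neurog3, a factor of undifferentiated spermatogonia and of the endocrine pancreas (-0.59 ± 0.10, adjusted p = 0.0183). With the RARaKO label, Id4 fell by 0.45 on the log2 scale (adjusted p = 0.0444) and Neurog3 differed by -0.54 ± 0.10 (adjusted p = 0.0521). With the set as a block 2 of the 125 were called there, while the calls over all probe sets went from 99 to 167. Id4 read -0.12, -0.33 and -0.26 in WT atRA arrays, against 0.56, 0.35 and 0.27 in WT vehicle arrays. The uncalled genes of smallest p in WT (limma) went both ways without overlap, as 7.4% of all probe sets did below and 6.22% above. Tex15, of meiotic recombination, differed by -0.40 ± 0.10 (adjusted p = 0.153) and Rec8, of the chromosome axis, by 0.35 ± 0.09 (adjusted p = 0.199). With the RARaKO label they differed by -0.37 ± 0.10 (adjusted p = 0.245) and 0.32 ± 0.09 (adjusted p = 0.297).

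**Figure D4:**
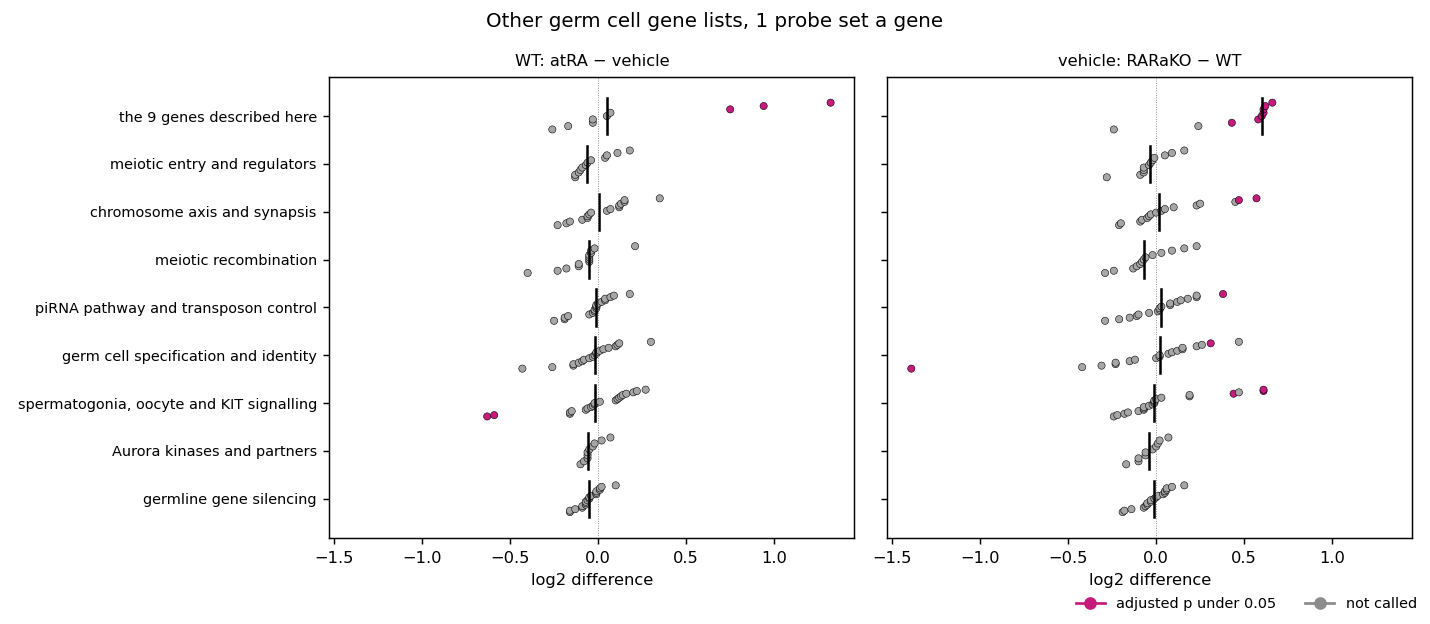
Each point is 1 gene on 1 probe set, with the log2 difference on the horizontal axis and the gene list on the vertical axis. The left panel is the WT response to atRA and the right panel the genotype difference in vehicle. Black ticks are list medians and coloured points passed an adjusted p of 0.05. The 9 genes described here have a median of 0.60 in the right panel, where the median of the 125 others is -0.01. The 9 and the lists were chosen with earlier results of these data known, so this contrast is a description.

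In vehicle, 7 of the 125 were higher in the arrays labelled RARaKO and 1 was lower, against 2.05% and 1.33% of all genes, and their median was -0.01 beside -0.02 over all genes. With the set as a block 11 of the 125 were called, against 8, while the calls over all probe sets went from 1131 to 1972. Of 16 genes of the chromosome axis and synapsis, 2 were higher: Tex12, a synaptonemal complex gene like Syce1 (0.47 ± 0.08, adjusted p = 0.00645), and 4930447C04Rik, also known as Six6os1 and of the same complex (0.57 ± 0.09, adjusted p = 0.00329). Tex12 read 0.21, 0.21 and 0.13 in vehicle arrays labelled RARaKO, against -0.22, -0.27 and -0.40 in WT vehicle arrays. Of the 21 genes of spermatogonia, oocytes and KIT signalling, 3 were higher: Sohlh2, a germ cell transcription factor (0.61 ± 0.09), Zp3, of the egg coat (0.61 ± 0.09), and Rhox13 (0.44 ± 0.11).

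Morc1, which silences transposons in the male germ line (0.38 ± 0.08), was the called one of 18 genes of the piRNA pathway and transposon control. Of 19 genes of germ cell specification and identity, Gpat2 was higher (0.31 ± 0.07) and Tex13b, a testis-expressed gene, was lower by 1.39 on the log2 scale (-1.39 ± 0.08, adjusted p = 1.50e-06). Tex13b read -0.58, -0.74 and -0.85 in vehicle arrays labelled RARaKO, against 0.62, 0.78 and 0.58 in WT vehicle arrays. With atRA in both genotypes, Tex12, 4930447C04Rik, Sohlh2 and Zp3 were higher and Tex13b and Dnd1 were lower, where 1.74% of all genes were called in each direction. With the set as a block 13 of the 125 were called there, against 6. Over all probe sets the block raised the calls as well, from 1173 to 2344.

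No gene was called in any comparison among 12 of meiotic entry, 13 of meiotic recombination, 10 of Aurora kinases and partners or 19 of germline gene silencing. At an unadjusted p under 0.05 in vehicle (limma), 0, 3, 1 and 1 of them passed. The silencing genes, among them Dnmt1, Dnmt3a, Dnmt3b, E2f6 and Pcgf6, ran from -0.19 to 0.16 between genotypes in vehicle.

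The genes most like each member were taken as those with the smallest root mean square distance between centred profiles over the 12 arrays, among 1 probe set of every other gene. For Stra8 they were Adgra2 (0.149), Acp5 (0.150) and Tle6 (0.157), where the median gene lay at 0.520. For Aurkc they were Rarb, the retinoic acid receptor beta gene (0.160), Tle6 (0.171) and Csn3 (0.173), with a median of 0.689. For Kit they were Foxa1 (0.098), Aqp3 (0.108) and Cxcr4 (0.117), with a median of 0.396. Rarb rose with atRA by 1.35 ± 0.09 in WT (adjusted p = 1.33e-05) and by 0.95 ± 0.09 in arrays labelled RARaKO (adjusted p = 4.05e-04). As Rarb was picked here by its likeness to Aurkc over these same arrays, that direction was fixed in advance.

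The profile nearest to Dazl (1419542_at) was that of the synaptonemal complex gene 4930447C04Rik, at a distance of 0.094, where the median gene lay at 0.321. Tceal1 (0.106) and Prr23a3 (0.109) came next. Nearest to Syce1 were Abcg1 (0.095), Toe1 (0.105) and Cc2d1b (0.108), and nearest to Tex19.1 were Noxred1 (0.086), Nsun4 (0.089) and Cap1 (0.090). Each gene near these 2 lay higher in vehicle arrays labelled RARaKO than in WT, by 0.49 (Cc2d1b) to 0.71 (Toe1). Choosing them by likeness over these same arrays fixed that direction in advance, so it is no separate result. Where these genes lie in the genome was not examined here. For Stk31 the nearest were Cspp1 (0.099), Ankrd49 (0.108) and 2810013P06Rik (0.113), and for Sycp1 Cc2d2a (0.101), Ano6 (0.106) and Srsf5 (0.110). For Piwil2 they were Hif1a (0.036), Cenpq (0.043) and Dna2 (0.044). Such likeness rests on 12 arrays in 4 groups and is a description of their pattern.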

How the data were processed

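RNA of F9 cells was measured on 12 Affymetrix arrays. Per the submitters' processing notes the authors used GCRMA, whose version is not given there, and the deposited values are taken as log2, the scale GCRMA gives, though no label names the log base. Every probe set had a median of 0 over the 12 arrays (within 7.02e-07), a centring no label records. Whether a probe set lay at 8 or more was read from the single-precision steps of its values, a reading that was right for 99.4% of 20000 simulated probe sets. After 61 controls were left out, 37600 probe sets were tested: 30488 carried 1 symbol, 784 several and 6328 none, and only those with 1 were named.

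Each group had 1 mean in a linear model over all 12 arrays without a block (limma 3.58.1, R 4.3.3), with moderated errors from 8 residual degrees of freedom and a prior worth 4.60. Tests had 2 sides, the Benjamini-Hochberg adjustment ran across all 37600 probe sets, and calls needed an adjusted p under 0.05. Since no label says that sets were separate cultures, these p-values measure only array-to-array spread, perhaps a technical one. Errors after ± are standard errors of the fit unless given as SD. On simulated data for the WT response over 37600 probe sets, the fit recovered 99 of 100 changes of 1 log2 unit and 66 of 100 of 0.5. In count of genes, 1 probe set stood for each: highest level class, then least ambiguous type, then lowest number. Deviations from the group means went together in arrays of the same set, with correlations of 0.101 to 0.392 in the WT response. The correlations were 0.117 to 0.497 in the response of arrays labelled RARaKO. Between genotypes they were 0.116 to 0.238 in vehicle and 0.038 to 0.287 in atRA. Blocked values therefore stand beside the member probe sets whose call changed and the counts of other germline genes that moved.

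The members, the 12 other lists (the 8 of the germ line and 4 of cell type markers), the naming rule and the motifs were chosen with earlier results of these data known. The rule named all members, called genes of the other lists with up to 3 of smallest p where fewer were called, and for each called member the 3 genes nearest in profile. Of the genes taken by smallest p, only some are printed here. Alternatives were the block, fits on the compared groups alone, a robust prior, array weights, 2 scalings, level class 8 or more, means over a gene's probe sets, and leaving out each array or set. Promoter windows are RefSeq's. The number of arrays limits the precision of every value.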

Additional observations from a re-analysis of the deposited data

How the results depend on the processing

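Among the 9 genes, the count called with atRA in WT was 3 and ranged from 2 to 3 without single arrays or sets. With the RARaKO label it was 3, with 1 in a fit on the groups compared alone and 0 to 2 with arrays left out. Between genotypes it was 7 in vehicle (2 to 7 with arrays left out) and 6 in atRA, 5 higher and 1 lower on 1 probe set a gene (2 in a fit on the groups alone, 0 to 5 with arrays left out). In vehicle it was 8 with array weights, 6 with means over probe sets and 5 under quantile normalization, and in atRA it was 8 with means over probe sets, 7 with the block, 5 with array weights and 4 under both scalings. A filter to level class 8 or more, which keeps 4 of the 9 genes, left 4 in vehicle and 3 in atRA. The difference of the responses stayed at 0 under each alternative. Over the 125 other genes, calls with atRA in WT were 2 (3 with means over probe sets, 1 on the groups alone, 1 at class 8 or more, 0 to 2 with arrays left out). With the RARaKO label they were 1 (2 with the replicate block, with array weights, under both scalings and at class 8 or more, 4 with means over probe sets, 0 on the groups alone and 0 to 0 with arrays left out). In vehicle they were 8 (11 with the replicate block and with array weights, 12 with means over probe sets, 9 scaled to 1 median and spread, 6 on the groups alone, 4 at class 8 or more, 1 to 7 with arrays left out). In atRA they were 6 (13 with the replicate block, 10 with means over probe sets, 9 with array weights, 5 scaled, 4 on the groups alone and at class 8 or more, 2 to 6 with arrays left out). Between genotypes in atRA, the replicate block also called Dazl on 1419542_at (adjusted p = 0.0369) and Stk31 on 1425317_x_at (0.00504), and over all probe sets it called 2344 against 1173. It called 339 against 214 in WT with atRA, 167 against 99 in arrays labelled RARaKO and 1972 against 1131 in vehicle, and the called probe sets of the 9 genes that it added in these 3 comparisons are given with their results. Every value whose sign turned was uncalled in the fit reported. In WT these were Dazl (1419542_at, 0.06) and Tex19.1 (0.01) with array weights and Stk31 (1454138_a_at, -0.07) with means over probe sets. In arrays labelled RARaKO it was Piwil2 (0.03 with array weights, 0.02 and 0.03 under the scalings), and in the difference of responses Syce1 (0.02, quantile). With arrays left out, WT values ran from -0.16 to 0.05 for Dazl (1419542_at), -0.08 to 0.03 for Dazl (1449502_at), -0.04 to 0.19 for Stk31 (1454138_a_at) and -0.10 to 0.06 for Tex19.1. In arrays labelled RARaKO they ran from -0.13 to 0.07 for Tex19.1 and -0.05 to 0.05 for Piwil2. For the difference of responses they ran from -0.23 to 0.00 for Kit (1415900_a_at), -0.12 to 0.00 for Dazl (1449502_at), -0.14 to 0.10 for Syce1, -0.01 to 0.31 for Sycp1 (0.19 with all arrays, -0.01 without set 3), -0.01 to 0.17 for Stk31 (1425317_x_at), -0.14 to 0.09 for Tex19.1 and -0.11 to 0.00 for Piwil2. Fewer arrays or probe sets enter the left-out and filtered fits, and for the other changes the cause was not tested. Signal over background was not analysed here.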
